A study of Mus musculus with 2 samples.

Results

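Nerve cells and glia of the embryonic lung are few, and 29 genes that mark them were followed in RNA from whole mouse lung. The genes were chosen by name as markers of neurons, ganglia and glia, and all 29 were found by symbol among the 41709 entries of the deposited tables. They comprise 20 neuronal genes, 6 receptors that neurons share with other cells, and 3 glial genes. Lungs of C57BL/6 embryos at E14.5 were collected in pools of 7, and polyadenylated RNA of each pool gave 1 library. The control library is from wild-type lung, and the other library is labelled Prmt5 knockdown, with Shh and Prmt5 named in its title. How either gene was altered, and in which cells, is not given in the labels. There are no replicates, so every ratio below compares 2 libraries and not the genotypes in general.

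Neurons inside the lung arise from neural crest cells that migrate with the vagus nerve into the foregut and settle as small ganglia along the airways. The receptor RET with its GFRA co-receptors binds ligands of the GDNF family and guides such crest cells, and SOX10 keeps crest and glial cells in their state. Neurons that have left the cell cycle switch on RNA-binding proteins, filaments and vesicle proteins, and glial precursors keep SOX10 and add FABP7 and S100B. Several of these genes are also active outside nerves, among them in neuroendocrine cells of the airway epithelium and in mesenchyme.

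The promoters printed here serve to set neuronal against glial genes, and 18 of the 29 genes had a window in the RefSeq table of GRCm38.p6, from 250 bases before to 50 after the start. These 18 genes had 22 windows, 4 of them of Elavl4 and 2 of Syt1. The stretches shown run from 100 bases before the start to 10 after it, for 4 neuronal genes and the 2 glial genes in the table, and capitals mark matches to a searched motif.
Tubb3: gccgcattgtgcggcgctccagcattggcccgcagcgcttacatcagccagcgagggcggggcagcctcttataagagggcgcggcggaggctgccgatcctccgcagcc
Prph: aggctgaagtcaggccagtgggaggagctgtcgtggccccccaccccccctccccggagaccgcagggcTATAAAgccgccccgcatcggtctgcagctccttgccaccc
Elavl3: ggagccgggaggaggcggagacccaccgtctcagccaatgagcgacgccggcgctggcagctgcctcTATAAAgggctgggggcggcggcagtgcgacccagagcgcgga
Scg2: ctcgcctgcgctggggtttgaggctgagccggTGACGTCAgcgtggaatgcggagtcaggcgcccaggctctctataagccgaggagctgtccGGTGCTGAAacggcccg
Fabp7: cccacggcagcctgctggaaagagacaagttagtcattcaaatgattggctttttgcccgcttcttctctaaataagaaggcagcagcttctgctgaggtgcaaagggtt
S100b: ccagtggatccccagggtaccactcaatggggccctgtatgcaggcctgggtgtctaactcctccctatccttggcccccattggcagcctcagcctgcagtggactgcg
These are Tubb3 at chr8:123411453-123411562 (plus strand), Prph at chr15:99055074-99055183 (plus), Elavl3 at chr9:22052014-22052123 (minus), Scg2 at chr1:79440017-79440126 (minus), Fabp7 at chr10:57784823-57784932 (plus) and S100b at chr10:76253736-76253845 (plus). In these 110 bases the 4 neuronal genes held between 6 and 12 CpG pairs, Fabp7 held 2 and S100b held 1. Over the whole windows of 300 bases, the 18 neuronal windows had a median of 12 CpG pairs (range 4 to 37), the 2 glial windows had 3 and 6, and all 32851 windows had a median of 7. The lower part of the neuronal range therefore overlaps the glial windows.

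On both strands of these windows 6 motifs were searched, with no overlap between the matches found. The capitals in Prph and Elavl3 are the TATA box TATAAA, which 13.6% of all windows hold. Scg2 held the cyclic AMP response element TGACGTCA, present in 1.79% of all windows, and the left arm of the RE1 silencer element, TTCAGCACC, read on the other strand. The left arm occurs in 0.371% of all windows, and the right arm of RE1 in 0.521% and in none of the 22. A pair of homeodomain core sites facing each other occurs in 0.487% of all windows and in none of these, and the SOX motif ACAAAG in 18.7% of all windows and in those of Scg3, Stmn3 and Syt1. A match is a run of letters and not a shown binding site.

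The libraries held 22581490 reads (control) and 25829281 reads (knockdown). Prmt5 itself had 2704 and 2127 reads, 1.35-fold lower, and Shh had 1124 and 109 reads. Counts were scaled to the trimmed mean of M values, ratios are knockdown over control, and brackets give the 95% counting interval on the log2 scale. Genes with 50 or more reads in either library are called measured. A rule of size then took genes at least 1.5-fold higher or lower whose interval did not include 1. By this rule Shh was lower (10.9-fold), and Prmt5 did not pass. Of all 14569 measured genes 20.7% were higher and 12.3% lower by this rule, with a median log2 ratio of -0.01 (scaled to total counts, 18.3% and 16.7%). Genes typical of other organs also took a larger share of reads in the library labelled Prmt5 knockdown. Those of liver went from 0.00558% to 0.950% of reads and those of heart muscle from 0.00692% to 0.398%. Skeletal muscle genes went from 0.00268% to 0.0956% and adrenal genes from 0.000465% to 0.0222%. Genes of the lung epithelium went from 0.156% to 0.0304%, and the defining markers of the labelled tissue, Nkx2-1 (7550 and 895 reads) and Sftpc (8880 and 1313 reads), were present in both libraries. Whether the reads of the other organs' genes came from tissue of those organs was not tested. Nor was the part of these genes in the neural values below.

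Most nerve genes were higher in the library labelled Prmt5 knockdown, neuronal and glial ones alike. Of the 29 genes, 20 were higher past the rule (19 when scaled to total counts), 1 was lower, 3 were measured and not past it, and 5 had under 50 reads in both libraries. Among the measured genes 6 reached the minimum through the knockdown library alone (Elavl3, Elavl4, Snap25, Syt1, Scg5 and Gfra3), which selects for higher values. Of the 18 genes with at least 50 control reads, 14 were higher and 1 lower, where 13.9% and 13.5% of all such genes were. With no read minimum and no bar on the ratio, the interval lay above 1 for 25 of the 29 and below 1 for Ret alone, against 23.8% and 21.8% of the 27674 genes with a read. In a pool of whole lungs, more nerve cells and more RNA per nerve cell cannot be told apart. Neither can be told apart from RNA of the other organs named above, if tissue of those organs was in the pool.

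**Figure D1:**
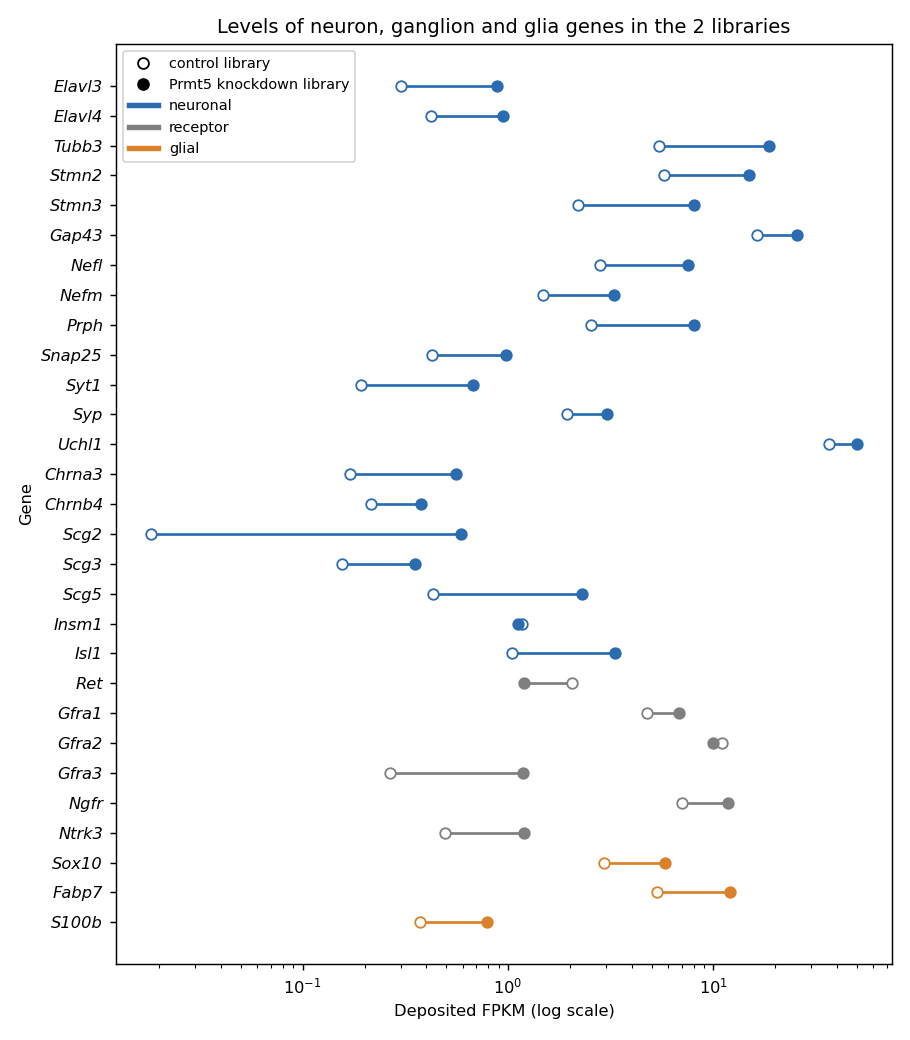
Deposited FPKM of each gene (log scale) in the control library (open circles) and the Prmt5 knockdown library (filled circles), coloured by class. The filled circle lies to the right for all genes except Insm1, Ret and Gfra2, and Scg2 starts from a single control read.

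Per length, the most abundant of the neuronal genes was Uchl1, a ubiquitin hydrolase of neurons and neuroendocrine cells, at 36.6 FPKM in the control library and 50.1 FPKM with knockdown. Gap43, a growth cone protein, stood at 16.3 and 25.4 FPKM. Elavl3, Elavl4, Snap25, Syt1, Chrna3, Chrnb4, Scg2 and Scg3 were under 1 FPKM in both libraries. All 20 neuronal genes together took 0.0120% of control reads (exact binomial interval 0.0115% to 0.0124%) and 0.0243% of knockdown reads (0.0237% to 0.0249%), and Uchl1 alone gave 35.1% of the control sum.

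The RNA-binding proteins of the ELAV family stabilise neuronal messages. Elavl3 had 34 control and 114 knockdown reads, a log2 ratio of 1.65 (1.10 to 2.26). Elavl4 had 35 and 90 reads, a log2 ratio of 1.27 (0.70 to 1.89). Both were higher in the knockdown library, from control values below the read minimum.

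All 4 microtubule and growth cone genes were higher. Tubb3, the tubulin of young neurons, (NCBI gene 22152, chromosome 8, 123411553 to 123422015) had 212 and 832 reads and was 3.70-fold higher (log2 1.89, 1.67 to 2.11). Stmn2, a stathmin that binds tubulin in growing axons, had 247 and 731 reads (log2 1.48, 1.27 to 1.70). Its relative Stmn3 had 56 and 236 reads (log2 1.98, 1.57 to 2.44). The intervals of Tubb3 and Stmn3 overlap. Gap43 had 481 and 859 reads, and its log2 ratio of 0.75 (0.59 to 0.92) lay below the intervals of the other 3 genes.

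All 3 neuronal intermediate filaments were higher. Prph, the peripherin of peripheral nerves, had 111 and 402 reads (log2 1.77, 1.47 to 2.09). Nefl, the light neurofilament chain, had 127 and 390 reads (log2 1.53, 1.24 to 1.83). Nefm, the middle chain, had 108 and 273 reads (log2 1.25, 0.93 to 1.59). The interval of Nefl overlaps those of both others, so their order is not resolved by counting error. Nefl and Nefm share 1108 bases of annotated exons on opposite strands in GENCODE. Their RefSeq positions on chromosome 14, 68083863 to 68089095 and 68119545 to 68125004, do not overlap. The lengths the authors used, 2009 and 3230 bases, are below the GENCODE exon totals of 3380 and 5782 bases. The annotation and strand setting of the counts are not given, so whether any reads were shared was not tested.

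Vesicle genes were sparse and moved less evenly. Syt1, the calcium sensor of synaptic vesicles, had 20 and 80 reads (log2 1.89, 1.19 to 2.70), and Snap25, a SNARE protein of the plasma membrane, had 21 and 55 reads (log2 1.29, 0.56 to 2.10). Syp, the vesicle membrane protein synaptophysin, had 108 and 194 reads (log2 0.76, 0.41 to 1.11). Uchl1 had 949 and 1484 reads and a ratio of 1.47, just outside the rule of 1.5 (log2 0.56, 0.44 to 0.68). Just inside it stood the receptor Gfra1 at 1.54. The 2 genes with the most reads among these 4, Uchl1 and Syp, had the 2 smallest ratios. However, Syt1 and Snap25 reached the read minimum only through the knockdown library, which selects for higher values. The interval of Snap25 overlaps those of Syp and Uchl1, so the order of these genes is not resolved by counting error.

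Ganglionic nicotinic receptor genes had too few reads for the rule. Chrna3, the alpha subunit of the receptor in autonomic ganglia, had 12 and 45 reads (log2 1.78, 0.88 to 2.88). Chrnb4, its beta partner in the same gene cluster on chromosome 9, had 14 and 28 reads, and its interval included 1 (log2 0.89, -0.06 to 1.96). Of 7 other neuronal subunits 3 were measured and all 3 were higher. Chrna4 had 41 and 156 reads (log2 1.83), Chrna7 had 13 and 52 (log2 1.88) and Chrnb2 had 21 and 55 (log2 1.29). Each of these 3 also had under 50 control reads. Of the 5 subunits of the muscle receptor 3 were higher, Chrng at 10 and 266 reads, Chrna1 at 6 and 160 and Chrnd at 4 and 117, in the library that carried skeletal muscle genes. These 3 passed the minimum only through the knockdown library. Chrnb1, with 314 and 233 reads, did not pass the rule (log2 -0.51, -0.77 to -0.27), and Chrne was at 0 in both.

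Secretogranins, proteins of dense-core granules in neurons and endocrine cells, included the 2 highest ratios of the 29, Scg2 and Scg5. Scg5, the chaperone of a prohormone convertase, had 12 and 73 reads (log2 2.47, 1.63 to 3.54). Scg2 had 1 and 37 reads (log2 4.57, 2.56 to 10.47), and Scg3 had 19 and 49 (log2 1.26, 0.49 to 2.13). Scg2 and Scg3 were under the read minimum, and the length the authors used for Scg3 was 1.97 times its annotated exons. Scg2 is the gene whose printed promoter holds the response element and the RE1 arm. Of 11 other granule genes 7 were measured and higher (median log2 ratio 1.72). But 5 of the 7 had under 50 control reads and passed the minimum only through the knockdown library, which selects for higher values. The other 2 were the carboxypeptidase Cpe (972 and 3400 reads, log2 1.72) and Pcsk1n (98 and 301, log2 1.53). The chromogranins Chgb (12 and 175 reads, log2 3.73) and Chga (22 and 247, log2 3.38) were among the 5. These genes are shared with the adrenal medulla. The adrenal list, mostly steroid genes of the cortex, held 105 control and 5723 knockdown reads, with 3 of its 9 genes at 0 in the control (Cyp11b1, Cyp21a1 and Mc2r), and its part in the granule values was not tested.

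The 2 transcription factors differed. Isl1, a homeodomain factor of autonomic and sensory neurons that is also active in foregut mesenchyme and heart progenitors, had 58 and 210 reads (log2 1.76, 1.35 to 2.22). Insm1, a zinc finger factor of neuroendocrine differentiation, had 80 and 87 reads (log2 0.04, -0.42 to 0.49), and its sign turned under total counts. Their intervals do not overlap. Among genes of pulmonary neuroendocrine cells, Ddc, an enzyme of amine synthesis, had 300 and 1050 reads and was higher, as was Chga. The peptide gene Calca (11 and 41 reads) was under the read minimum, as was Grp.

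**Figure D2:**
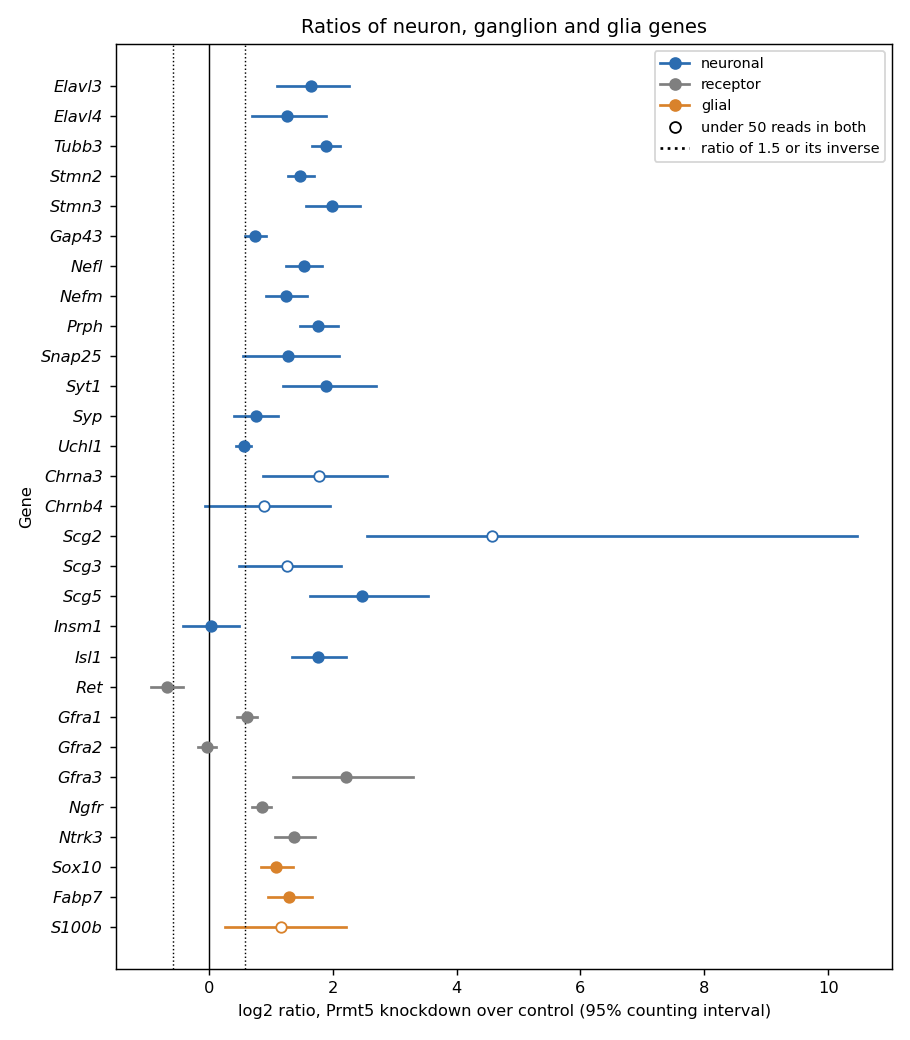
The log2 ratio of knockdown over control for each gene, with 95% counting intervals, coloured by class; open circles had under 50 reads in both libraries and dotted lines mark a ratio of 1.5 and its inverse. Ret lies below 0, Gfra2 and Insm1 span it, and the 3 glial genes sit between 1.09 and 1.30.

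The GDNF family receptors went in different directions. Ret, the signalling receptor kinase, (NCBI gene 19713, chromosome 6, 118151748 to 118197744) went from 311 reads to 207, which is 1.59-fold lower (log2 -0.67, -0.93 to -0.41). No other gene of the 29 was lower past the rule. Its co-receptors are anchored to the membrane and choose the ligand. Gfra1, which binds GDNF, had 499 and 813 reads (log2 0.62, 0.46 to 0.78), and its call was lost under total counts (0.51). Gfra2, which binds neurturin, had 807 and 839 reads (log2 -0.03, -0.17 to 0.11). Gfra3, which binds artemin, had 12 and 61 reads (log2 2.22, 1.35 to 3.29). The intervals of Ret, Gfra2, Gfra1 and Gfra3 follow in that order without overlap.

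Both neurotrophin receptors were higher. Ngfr, the p75 receptor of crest cells, glia, neurons and mesenchyme, had 541 and 1036 reads (log2 0.85, 0.70 to 1.01). Ntrk3, the receptor kinase for neurotrophin 3, had 106 and 294 reads (log2 1.38, 1.06 to 1.72). Of the related receptors, Ntrk2, the kinase for brain-derived neurotrophic factor, was higher (94 and 406 reads, log2 2.02) and Sort1, a sorting receptor active in many tissues, was lower (3486 and 2443, log2 -0.60). Gfra4 had 224 and 183 reads (log2 -0.37) and Sorcs1 had 159 and 228 (log2 0.43), neither past the rule.

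Ligands of these receptors did not move as a block. Of 7 measured ligands 4 were higher and none lower. Among the higher ligands, Gdnf had 24 and 82 reads (log2 1.67), Artn had 50 and 93 (log2 0.81) and Ntf3 had 55 and 100 (log2 0.77). Nrtn, the most abundant of the list at 35.2 and 27.7 FPKM, had 713 and 642 reads (log2 -0.24, -0.39 to -0.08). Bdnf (56 and 46 reads) and Ntf5 (128 and 134) did not pass the rule, and Pspn had 9 and 10 reads. The list's median of 0.77 turned to -0.02 when 50 control reads were required. Side by side, Gdnf and its co-receptor Gfra1 were higher, as were Artn and Gfra3. Nrtn and Gfra2 did not pass the rule, and Ret was lower. However, Gdnf and Gfra3 passed the read minimum only through the knockdown library, and Gfra1 lost its call under total counts.

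The 3 glial genes had log2 ratios close to each other. Sox10 (NCBI gene 20665, chromosome 15, 79154913 to 79164490), the crest and glial transcription factor, had 180 and 407 reads and was 2.13-fold higher (log2 1.09, 0.84 to 1.35). Fabp7 (NCBI gene 12140, chromosome 10, 57784923 to 57788450), the fatty acid binding protein of glial precursors, had 91 and 238 reads and was 2.46-fold higher (log2 1.30, 0.95 to 1.67). S100b, a calcium-binding protein of glia, had 14 and 34 reads, under the read minimum (log2 1.17, 0.26 to 2.21). The 3 intervals overlap one another. SOX10 is also a factor of melanocytes, whose genes Mitf (54 and 284 reads) and Dct (6 and 57) were higher, and S100B is also made by chondrocytes, whose genes Acan (24 and 128) and Comp (20 and 102) were higher while Col2a1 (1956 and 1522) and Col9a1 (269 and 382) did not pass the rule. Their part in the glial values was not tested.

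The neuronal and glial ranges overlapped. The measured neuronal genes had a median log2 ratio of 1.51 (16 genes) and the measured glial genes one of 1.19 (2 genes), a difference of 0.31. From FPKM with a pseudocount of 1 the order turned, with medians of 0.70 and 0.92 and a difference of -0.23. Over all 20 and all 3 genes the medians were 1.51 and 1.17. Of the 20 neuronal ratios 11 lay above the highest glial ratio, 4 within the glial range and 5 below it. The counting intervals of 13 neuronal genes overlapped that of Sox10, those of 5 lay wholly above and those of 2 (Uchl1 and Insm1) wholly below. The measured neuronal ratios ran from 0.04 (Insm1) to 2.47 (Scg5), a spread wider than the gap between the medians.

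A ratio of neuronal to glial reads inside each library does not depend on the scaling between libraries. There were 9.49 neuronal reads per glial read in the control (2705 and 285 reads) and 9.23 in the knockdown library (6269 and 679), a log2 change of -0.04 (-0.26 to 0.17). Its sign and size depended on the genes placed in each class. It was -0.32 with the receptors counted as neuronal, 1.16 with the other glia genes added and 0.81 with both classes widened by the lists of other genes. The reported value rests on Uchl1 and Gap43, the neuronal genes with the most reads. Without Uchl1 the change was 0.19 (-0.03 to 0.41), and without both it was 0.37 (0.15 to 0.59), a choice made after the values were seen. Single pairs, also chosen then, showed both signs. Tubb3 reads per Sox10 read went from 1.18 to 2.04 (log2 0.80, 0.45 to 1.14) and Prph reads per Sox10 read from 0.617 to 0.988 (log2 0.68, 0.27 to 1.09). Gap43 reads per Sox10 read went from 2.67 to 2.11 (log2 -0.34, -0.65 to -0.03).

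**Figure D3:**
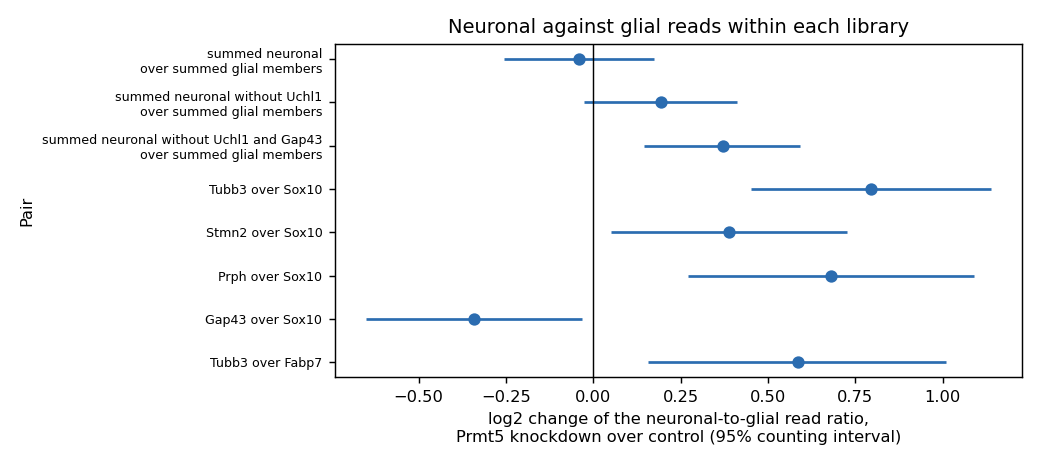
Log2 change of the neuronal-to-glial read ratio from the control to the Prmt5 knockdown library, with 95% counting intervals, for summed genes and for single pairs. The sum over all neuronal genes spans 0, most pairs lie above it, and Gap43 over Sox10 lies below.

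Genes outside the 29 gave a wider view of each class. Of 27 other pan-neuronal genes 23 were measured, 12 higher and 2 lower, with a median log2 ratio of 0.60. Of the 19 with at least 50 control reads 8 were higher and 2 lower, with a median of 0.37, and the other 4 passed the minimum only through the knockdown library. The growth cone gene Dpysl3 (1918 and 5806 reads, log2 1.51) was among the higher ones, as were the vesicle trafficking gene Nsg2 (35 and 218, log2 2.54) and the stathmin Stmn4 (30 and 168, log2 2.38), both of those 4. The lower genes, named after their values were seen, were Map2 (591 and 417 reads, log2 -0.59) and Nsg1 (1330 and 892, log2 -0.66). Dcx and Tubb2b were among the 9 that were measured and not past the rule.

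Other genes of Schwann cells and ganglion glia went both ways. Of 14 such genes 10 were measured, 5 higher and 2 lower, with a median log2 ratio of 0.45 that turned to -0.34 when 50 control reads were required. The filament gene Gfap, also active in stellate cells of the liver, had 21 and 350 reads (log2 3.94, 3.34 to 4.68). The myelin gene Mbp had 376 and 699 reads (log2 0.81), and the phosphatase Ptprz1 had 103 and 192 (log2 0.81). Erbb3, the neuregulin receptor of crest glia that lung epithelium also makes, had 1067 and 550 reads (log2 -1.04), and the Schwann cell factor Pou3f1, named after its value was seen, had 72 and 40 (log2 -0.92).

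Of 18 autonomic neuron genes 11 were measured, 9 higher and 1 lower. Their median log2 ratio was 2.02, beside 1.29 for the 24 measured genes of the 29. Of the 6 with at least 50 control reads 4 were higher and 1 lower (median 1.66). The factor Hand2, also active in heart, had 117 and 1771 reads (log2 3.83), and the peptide gene Npy had 1 and 67 (log2 5.42, 3.45 to 11.31). Dbh (20 and 238 reads, log2 3.46) and Th (16 and 156, log2 3.16) encode enzymes of noradrenaline synthesis in sympathetic neurons and chromaffin cells. The cholinergic genes Chat (3 and 6 reads), Slc18a3 (25 and 32) and Slc5a7 (15 and 25) were under the read minimum, as was Vip (4 and 12). Of 12 matched sensory neuron genes 1 was measured, with Pou4f1 at 10 and 6 reads and Prdm12 at 5 and 1. The adrenal genes named above moved with Th and Dbh, and their part was not tested.

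**Figure D4:**
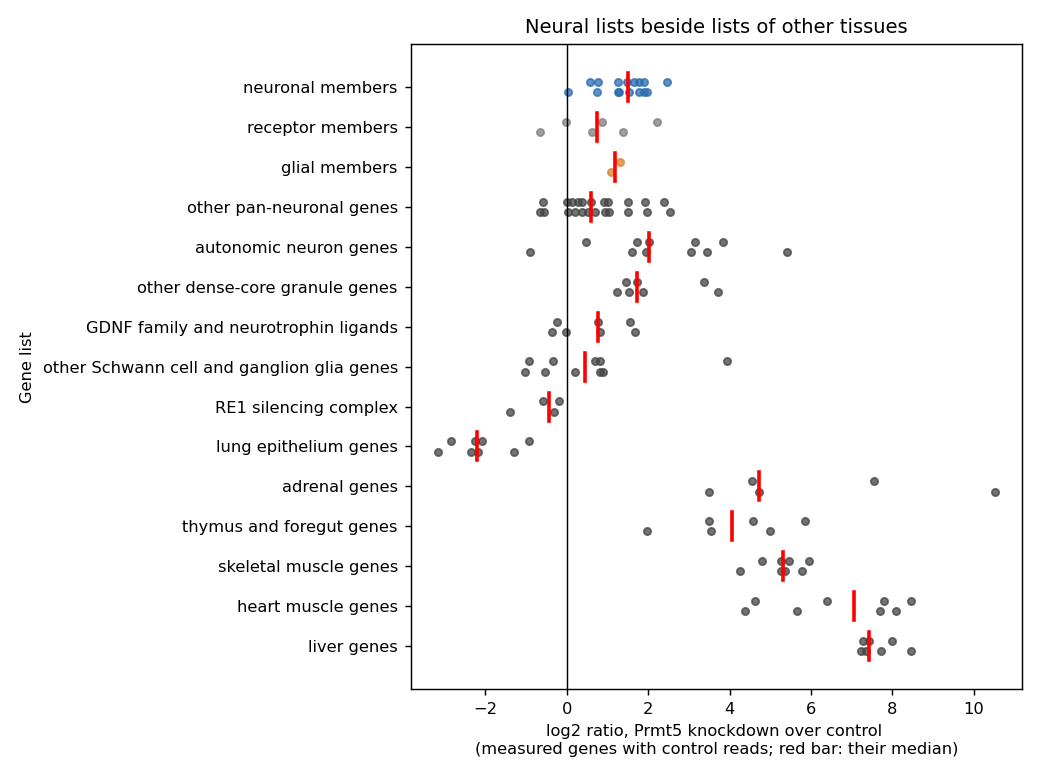
Log2 ratio of knockdown over control for each measured gene that had control reads, by list, with the median as a red bar. Neural lists lie mostly between -1 and 4, the lung epithelium list lies below 0, and the lists of adrenal gland, thymus and foregut, muscle and liver lie to the right.

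Rest, the gene of the factor that binds the RE1 element and silences neuronal genes outside the nervous system, had 1375 and 973 reads (log2 -0.58, -0.70 to -0.46), just short of the rule of size. It was lower past the rule under total counts, under the total of genes with at least 50 control reads and from FPKM, which made 2 of the 4 genes of the list lower. Of its 3 partners in the list, Rcor3 was lower (419 and 168 reads, log2 -1.40) and Rcor1 (1684 and 1557) and Sin3a (2255 and 1929) did not pass the rule. Whether these values bear on the neuronal genes was not tested.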

How the data were processed

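Per the submitters' processing notes, Bowtie2 2.2.3, TopHat2 2.0.12, HTSeq 0.6.1 and mm10 were used. Annotation and strand setting: not given in the sources used here. The authors deposited raw read counts per gene and FPKM values. Deposited FPKM equals count over library total and gene length: lengths so implied were whole within 0.001 bp in 100% of 22831 genes with a read in each library. NCBI numbers were matched to symbols of RefSeq GRCm38.p6 for 40269 of 41709 entries, holding 99.8% of reads in each library; 138 entries have no NCBI number.

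Counts were scaled with TMM (edgeR 4.0.16, R 4.3.3). Ratios used a prior of 0.5 counts, in proportion to library size, and their intervals are exact Clopper-Pearson intervals of the 2 counts given their sum (SciPy 1.17.1). The interval of a ratio of ratios is the exact conditional one. Intervals cover counting error only, and PCR copies are not independent molecules. With 1 library per group no test was made. The scripts were tested on simulated counts.

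All 29 genes are named. From each of 20 further lists up to 4 genes past the rule of size are named, ranked by the interval bound nearest to 1, or where none passed up to 2 with the most reads; in lists of ligands, receptors, nicotinic subunits and granule genes any measured gene may be named, and other names were chosen after their values were seen. The genes and lists were chosen with earlier results of these data known. Some listed genes, though included in list counts and medians, are not reported here. One listed gene, Drgx, had no match. Exon overlaps come from GENCODE vM21. Alternatives changed the scaling (total counts, DESeq2 1.42.0 size factors, genes with control reads), prior count, read minimum, ratio, unit, summary and class membership. Thymus and foregut genes were listed as markers of another tissue and went from 203 to 2658 reads.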

Additional observations from a re-analysis of the deposited data

How the results depend on the processing

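The 20 higher and 1 lower of the 29 genes stood within 1.5 times under the 3 other scalings, a prior count of 2, read minima of 10 and 1, and FPKM with a pseudocount of 0.1. With a read minimum of 200, 13 were higher, and with FPKM at a pseudocount of 1, 13 were higher, 0 were lower and the neuronal median was 0.70, since a pseudocount shrinks low values; the glial median was then 0.92, and the neuronal-minus-glial difference turned from 0.31 to -0.23. At a ratio of 2, 0 were lower. Adding the other glia genes moved the glial median from 1.19 to 0.76. The summed neuronal-to-glial change of -0.04 became -0.32 with receptors counted as neuronal, 1.16 with the other glia genes added, 0.81 with both classes widened, 0.19 without Uchl1 and 0.37 without Uchl1 and Gap43; the cause was not tested. Ednrb gives 60.2% of the control reads of the added glia genes. Uchl1 passed the rule with DESeq2 size factors (log2 0.59). List medians changed sign with a minimum of 200 reads for ligands (-0.24) and cartilage (-0.012), and with 50 control reads, an alternative added after seeing the data, for other glia genes (-0.34), ligands (-0.018), muscle nicotinic subunits (-0.51) and cartilage (-0.012). Under total counts the median over measured genes moved by -0.11. No paired analysis was possible because each group has 1 library, and leaving out a library was not possible for the same reason. Genes under about 50 reads, such as Chrnb4 and S100b, are limited by depth.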

Other observations

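Genes of the central nervous system were nearly silent in both libraries, with 3 of 16 measured. Lhx2, a homeodomain factor of forebrain that liver stellate cells also express, had 2 and 150 reads (log2 5.84, 4.27 to 9.20). Slc17a7, a vesicular glutamate carrier, had 24 and 194 reads (log2 2.91, 2.31 to 3.61). The defining factors Olig2 and Neurod2 and the carrier Slc17a6 had 0 reads in both libraries, and Pax6 had 0 and 2. A count of 0 allows up to 3 reads in a library.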
